A study of Mus musculus with 7 samples.

Results

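The Toll-like receptor genes Tlr1, Tlr2, Tlr3, Tlr4, Tlr6, Tlr7, Tlr8, Tlr9 and Tlr13, and Unc93b1, which encodes the protein that carries several of them to their compartment, were followed in mouse bone marrow. These 10 genes, of 35498 in the files, were taken by name, and all 10 had enough reads to be tested. Libraries from female mice with the genotype Aim2 knock out (KO, 3 libraries) were set against those from wild-type females (WT, 4 libraries), all aged 5 to 6 months and with no further treatment in the labels. Aim2 encodes a sensor of DNA in the cytosol. The deleted stretch of Aim2, the strain background and the number of mice behind each library are not given in the labels, so p-values measure the spread between libraries, which may be technical.

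Toll-like receptors recognise microbial molecules on myeloid cells, B cells and dendritic cells, all of which are made in marrow. TLR1, TLR2, TLR4 and TLR6 sit mainly at the cell surface and bind bacterial lipoproteins or lipopolysaccharide, whereas TLR3, TLR7, TLR8, TLR9 and TLR13 read nucleic acids inside endosomes. UNC93B1 is a membrane protein that escorts the endosomal receptors out of the endoplasmic reticulum. Most receptors of the family signal through the adaptor MYD88 to NF-kB and to interferon regulatory factors.

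The libraries held 20777315 to 21027429 estimated reads in KO and 20300468 to 21099972 in WT. Aim2 had 47 to 157 reads in KO libraries against 533 to 601 in WT libraries, and KO library 1 had the highest KO value. In TPM, a relative abundance corrected for transcript length, Aim2 had 10.4, 5.73 and 7.61 in KO libraries and 16.2 to 19 in WT libraries. Its adjusted p in the quasi-likelihood test of edgeR was 0.028, and 0.0651 without WT library 1. WT library 1 stood apart in the genes described here. Its CPM (the reads of a gene relative to the scaled library size) was the lowest of the 4 WT libraries for 9 of the 10 genes and the lowest of all 7 libraries for 8, against 33.4% and 23.7% of all 14238 tested genes. Haemoglobin genes took 19.9% of its reads, against 11.3 to 13.7% in KO libraries and 13.8 to 15.6% in the other WT libraries. Results are therefore given with and without WT library 1.

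None of the 10 genes passed the test between KO and WT marrow. All 10 had an adjusted p above 0.05 (quasi-likelihood test of edgeR, Benjamini-Hochberg adjusted), where 0.646% of the 14238 tested genes passed. At an unadjusted p under 0.05 the count was also 0, against 11.5% of tested genes, and DESeq2 and limma voom with sample weights called 0 of 10 as well, where they called 2.68% and 2.14% of all genes. Without WT library 1 again 0 of 10 passed, against 0.459% of all genes. The log2 fold change, KO over WT, was above 0 for 8 of the 10, against 47.3% of all genes, with a median of 0.13 beside -0.01 over all genes. Without WT library 1 it was above 0 for 5 of 10, against 50.1% of all genes, with a median of 0.03 beside 0.00. In CPM the KO and WT libraries overlapped for every one of the 10 genes, whereas 12.9% of tested genes had groups that did not overlap. In bulk marrow, fewer cells of a type and less RNA per cell cannot be told apart.

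**Figure D1:**
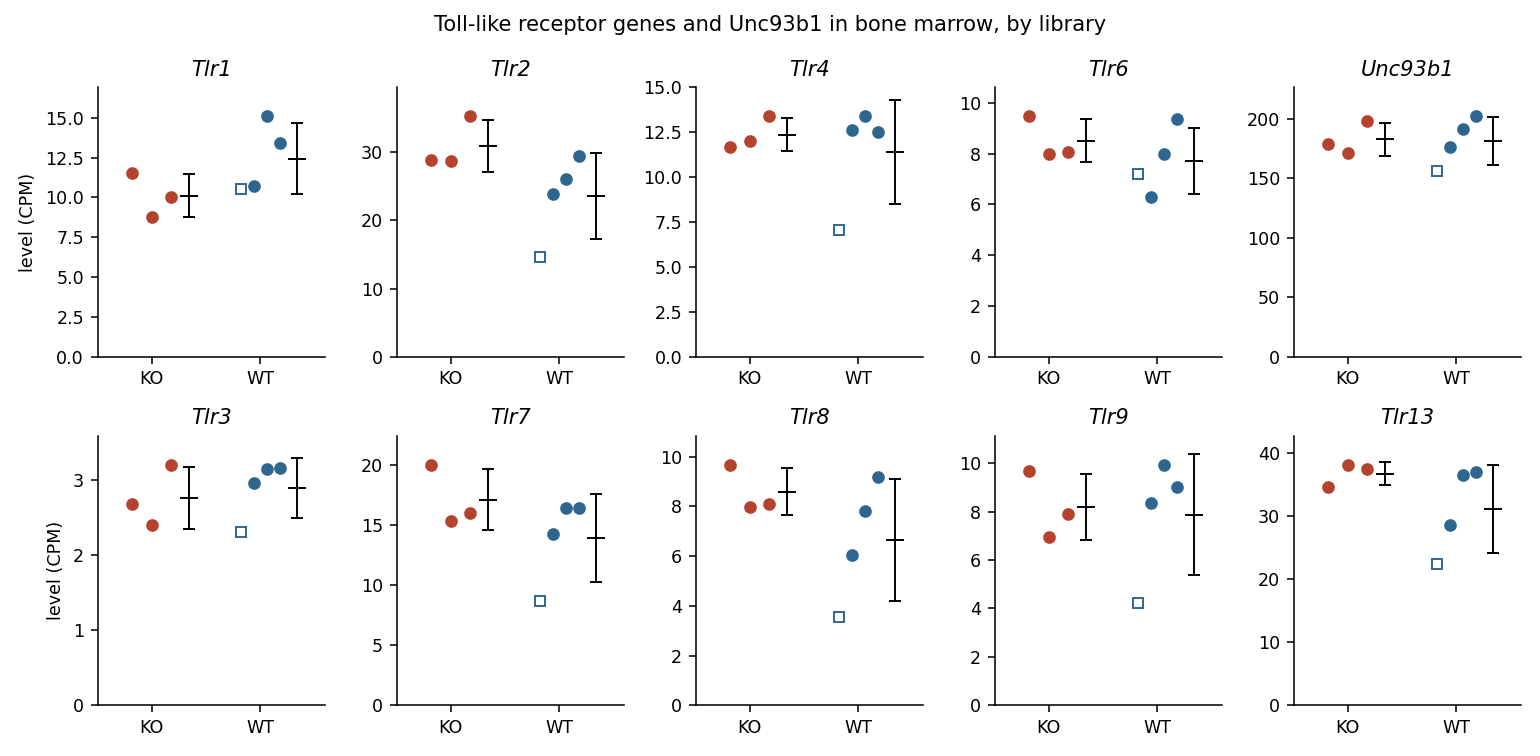
Level in CPM (y axis, linear from 0) of each of the 10 genes in 3 KO libraries (red, left) and 4 WT libraries (blue, right), with the mean ± SD as a black bar and WT library 1 as an open square. KO and WT points overlap in every panel, and the open square is the lowest WT point in all panels but that of Tlr6.

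The levels of the genes were ranked by TPM, a relative abundance corrected for transcript length. Unc93b1 stood far above the receptors, with a mean of 90.9 TPM over all 7 libraries and a range of 67.3 to 105. Its mean was 10.1 times that of Tlr2, the highest receptor, and 90.2 times that of Tlr3, the lowest. Only this step of the order was separate in its ranges.

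Tlr2 followed with a mean of 9.03 TPM (3.94 to 12.8), then Tlr13 with 8.61 TPM (4.33 to 9.99) and Tlr7 with 5.44 TPM (1.82 to 10). Tlr1 came next at 4.27 TPM (3.03 to 6.06), then Tlr6 at 3.30 TPM (1.77 to 3.84) and Tlr4 at 3.19 TPM (1.51 to 3.72). The lowest were Tlr8 at 2.87 TPM (0.828 to 4.43), Tlr9 at 2.22 TPM (0.953 to 2.86) and Tlr3 at 1.01 TPM (0.449 to 1.46). Each of these receptors overlapped its neighbour in the order. Tlr2 exceeded Tlr13 in 4 of 7 libraries, so their order does not hold beyond their spread, while Tlr9 exceeded Tlr3 in 7 of 7.

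Among the surface receptors, Tlr2 had the highest TPM and the highest log2 fold change, and it did not pass the test. TLR2 pairs with TLR1 or TLR6 to bind bacterial lipoproteins. The gene (ENSMUSG00000027995.10) lies on the minus strand of chromosome 3 (83836272 to 83841767, GRCm38). Tlr2 had 28.8, 28.7 and 35.3 CPM in KO libraries 1 to 3, against 14.7, 23.9, 26.1 and 29.5 CPM in WT libraries 1 to 4. WT library 4 lay above KO libraries 1 and 2, so the groups overlapped, and WT library 1 held 55.4% of the mean of the other WT libraries. The mean was 30.9 ± 3.80 CPM in KO (SD, n = 3) and 23.5 ± 6.34 CPM in WT (SD, n = 4). The KO over WT difference on the log2 scale was 0.39 ± 0.21 (SE, 95% interval -0.09 to 0.88, with edgeR's adjusted p at 0.536). Without WT library 1 it was 0.23 (adjusted p = 0.571).

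Tlr1 and Tlr6 encode the partners of TLR2 for triacylated and diacylated lipoproteins. They lie side by side on the minus strand of chromosome 5, with Tlr1 (ENSMUSG00000044827.10) at 64924679 to 64933563, Tlr6 (ENSMUSG00000051498.6) at 64952031 to 64960097, and 18467 bases between them. They are close paralogs, and reads that fit both were divided by Salmon's model, so values of either gene are uncertain to that extent. Tlr1 had 11.5, 8.79 and 10 CPM in KO libraries, against 10.5, 10.7, 15.1 and 13.4 CPM in WT libraries. KO library 1 exceeded WT libraries 1 and 2, so the groups overlapped. The mean was 10.1 ± 1.33 CPM in KO (SD, n = 3) and 12.4 ± 2.21 CPM in WT (SD, n = 4). Tlr1 had the lowest log2 fold change of the 10 genes, -0.30 ± 0.16 (SE, 95% interval -0.66 to 0.06, with edgeR's adjusted p at 0.524), and -0.37 without WT library 1 (adjusted p = 0.453). Tlr6 had 9.48, 7.98 and 8.05 CPM in KO libraries, against 7.18, 6.30, 8.0 and 9.38 CPM in WT libraries. The groups of Tlr6 overlapped, and WT library 2 rather than WT library 1 was lowest. Its log2 fold change was 0.14 ± 0.15 (SE, with edgeR's adjusted p at 0.785), and 0.11 without WT library 1 (adjusted p = 0.903). With any 1 library left out it ranged from 0.05 to 0.25.

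Tlr1 was read mainly from a pair of transcripts that start at different places, and the reads divided unequally between them. Tlr1-201 starts at base 64932761 of chromosome 5 and Tlr1-202 further upstream at base 64933561. Tlr1-201 had 204, 149 and 173 estimated reads in KO libraries, against 157, 154, 191 and 190 in WT libraries. Tlr1-202 had 38.5, 34.3 and 47.9 estimated reads in KO libraries, against 39.3, 66.0, 119 and 88.3 in WT libraries. Both overlapped between the groups, in Tlr1-202 because WT library 1 lay among the KO values. The mean of Tlr1-201 was 175 ± 27.5 reads in KO (SD, n = 3) and 173 ± 20.1 in WT (SD, n = 4). For Tlr1-202 it was 40.2 ± 6.96 reads in KO and 78.0 ± 33.6 in WT, with 90.9 in WT libraries 2 to 4. The split is Salmon's estimate and was not tested.

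The RefSeq promoter windows of both Tlr1 starts (250 bases before to 50 after, GRCm38.p6, minus strand) are shown because the Tlr1 reads divided by start. The first (chr5:64933509-64933808) is set on the RefSeq start at 64933558, 3 bases inside the first base of Tlr1-202. The second (chr5:64932650-64932949) is set on the RefSeq start at 64932699, 62 bases inside the first base of Tlr1-201. Capitals mark the motif GAGGAAGT, a site of the myeloid and B-cell factor PU.1.
Tlr1 upstream start: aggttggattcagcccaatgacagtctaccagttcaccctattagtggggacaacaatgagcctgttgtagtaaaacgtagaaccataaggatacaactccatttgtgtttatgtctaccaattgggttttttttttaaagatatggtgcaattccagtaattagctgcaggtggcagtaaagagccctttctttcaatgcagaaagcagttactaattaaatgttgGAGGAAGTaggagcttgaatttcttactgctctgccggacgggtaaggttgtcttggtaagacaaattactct
Tlr1 downstream start: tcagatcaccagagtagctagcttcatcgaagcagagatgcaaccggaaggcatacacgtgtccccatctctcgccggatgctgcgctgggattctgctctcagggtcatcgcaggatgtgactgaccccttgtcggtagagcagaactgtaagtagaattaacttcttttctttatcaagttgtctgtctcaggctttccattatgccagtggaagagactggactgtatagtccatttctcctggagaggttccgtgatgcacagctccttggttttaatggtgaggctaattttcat
The motif lies 23 to 16 bases before the upstream RefSeq start, and these letters are not in the downstream window. Both strands of 32851 promoter windows were searched for 4 motifs chosen with the values known, and 7 of the 10 genes had windows, 9 in all. GAGGAAGT occurred in 3.2% of all windows and in 2 of the 9, those of Tlr1 and Tlr9. The interferon response element GAAANNGAAA occurred in 3.44% of windows and in 1 of the 9 (Tlr6). The loose NF-kB pattern GGGNNNNNCC occurred in 50.8% of windows and in 3 of the 9 (Tlr2, Tlr3 and Tlr6). TATAAA occurred in 13.6% of windows and in 2 of the 9 (Tlr6 and Tlr8). Overlapping matches of different motifs were each counted.

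Tlr4, the receptor for lipopolysaccharide (ENSMUSG00000039005.13; chromosome 4, 66827584 to 66930284, plus strand), did not pass the test, and its value turned on WT library 1. Tlr4 had 11.7, 12 and 13.4 CPM in KO libraries, against 7.08, 12.6, 13.4 and 12.5 CPM in WT libraries. WT library 1 was far below the other 6 libraries, which lay close together. On the log2 scale the difference was 0.12 ± 0.20 (SE, 95% interval -0.35 to 0.58, with edgeR's adjusted p at 0.88), and -0.05 without WT library 1 (adjusted p = 0.92), a change of direction.

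Of the endosomal receptors, Tlr13 had the highest mean TPM. TLR13 recognises a stretch of bacterial ribosomal RNA in mice. The gene (ENSMUSG00000033777.4) is on the X chromosome, plus strand, at 106143204 to 106160493. Tlr13 had 34.6, 38.1 and 37.4 CPM in KO libraries, against 22.3, 28.6, 36.4 and 36.9 CPM in WT libraries. KO library 1 lay below WT libraries 3 and 4, so the groups overlapped. The mean was 36.7 ± 1.83 CPM in KO (SD, n = 3) and 31.0 ± 6.96 CPM in WT (SD, n = 4), a log2 fold change of 0.24 ± 0.17 (SE, with edgeR's adjusted p at 0.644), and 0.11 without WT library 1 (adjusted p = 0.81). In TPM the groups of Tlr13 came apart, with 9.83, 9.83 and 9.99 TPM in KO libraries, against 4.33, 7.59, 9.74 and 8.93 TPM in WT libraries. The gap between the lowest KO and the highest WT value was small beside the spread within WT. Of the 10 genes 1 came apart in this way, where 13.2% of all tested genes had every KO library above every WT library in TPM. On log2(TPM + 0.1) the median log2 fold change over all genes was 0.13, so the median gene was higher in KO on that scale.

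Tlr7 and Tlr8 encode receptors for single-stranded RNA, a role shown for TLR8 mainly in human cells. They are neighbours on the minus strand of the X chromosome, with Tlr8 (ENSMUSG00000040522.5) at 167242696 to 167264329 and Tlr7 (ENSMUSG00000044583.13) at 167304929 to 167330558, 40599 bases apart. Tlr7 had 20, 15.3 and 16.0 CPM in KO libraries, against 8.63, 14.2, 16.4 and 16.4 CPM in WT libraries. Tlr8 had 9.67, 7.98 and 8.10 CPM in KO libraries, against 3.54, 6.06, 7.80 and 9.19 CPM in WT libraries. In both genes KO library 1 was the highest and WT library 1 the lowest of the 7, and WT library 4 lay above KO libraries 2 and 3. The log2 fold change of Tlr7 was 0.30 ± 0.22 (SE, with edgeR's adjusted p at 0.662), and 0.13 without WT library 1 (adjusted p = 0.811). That of Tlr8 was 0.37 ± 0.28 (SE, with edgeR's adjusted p at 0.678), and 0.16 without WT library 1 (adjusted p = 0.833). Part of the Tlr7 TPM came from Tlr7-206, a short transcript with 4, 1 and 1 estimated reads in KO libraries and 0, 0, 0 and 3 in WT libraries. These few reads made up to 33.1% of the gene's TPM in KO and 35.4% in WT, so Tlr7 is better read in CPM.

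Tlr9, the receptor for unmethylated CpG DNA (ENSMUSG00000045322.10; chromosome 9, 106222598 to 106226883, plus strand), had 9.67, 6.97 and 7.92 CPM in KO libraries, against 4.24, 8.34, 9.94 and 9.0 CPM in WT libraries. WT libraries 2 to 4 overlapped the KO libraries, and WT library 1 held 46.6% of their mean. Its log2 fold change, KO over WT, was 0.05 ± 0.27 (SE, with edgeR's adjusted p at 0.97), and -0.15 without WT library 1 (adjusted p = 0.815), a change of direction. Tlr3, the receptor for double-stranded RNA (ENSMUSG00000031639.12; chromosome 8, 45395665 to 45411080, minus strand), had 2.68, 2.40 and 3.21 CPM in KO libraries, against 2.31, 2.96, 3.15 and 3.16 CPM in WT libraries. Its groups overlapped throughout, at the lowest mean TPM of the 10 genes. The log2 fold change of Tlr3 was -0.07 ± 0.19 (SE, with edgeR's adjusted p at 0.935), and -0.16 without WT library 1 (adjusted p = 0.837).

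**Figure D2:**
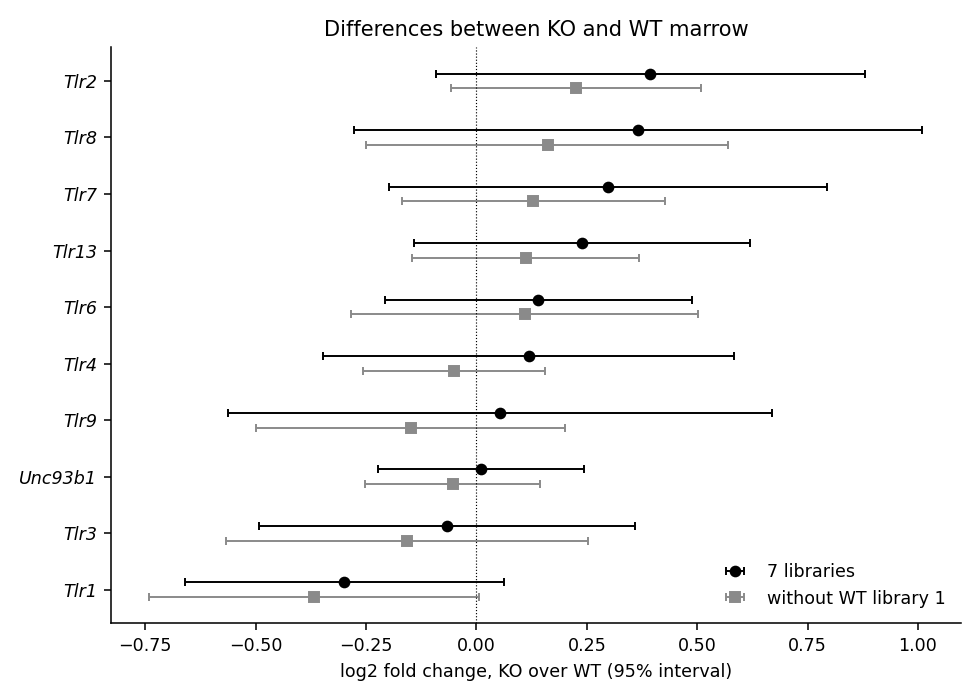
Log2 fold change, KO over WT, of each gene with its 95% interval (x axis), from all 7 libraries (black circles) and without WT library 1 (grey squares), ordered by the value from all libraries. With all libraries every interval includes 0, and Tlr4, Tlr9 and Unc93b1 cross to the negative side when WT library 1 is left out.

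Unc93b1 was the most precisely measured of the 10 genes. The gene (ENSMUSG00000036908.17) is on chromosome 19, plus strand, at 3935186 to 3949340. Unc93b1 had 179, 171 and 198 CPM in KO libraries, against 156, 176, 191 and 202 CPM in WT libraries. The groups lay over each other, at 183 ± 14.2 CPM in KO (SD, n = 3) and 181 ± 20 CPM in WT (SD, n = 4). The log2 fold change was 0.01 ± 0.10 (SE, with edgeR's adjusted p at 0.982), and its 95% interval as a fold ran from 0.857 to 1.18. Without WT library 1 it was -0.05 (adjusted p = 0.906).

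Within Unc93b1 the transcripts differed in share. Unc93b1-201 is annotated as a retained-intron transcript of 1668 bases and 5 exons (chromosome 19, 3942440 to 3949340). It starts 3 bases before intron 6 of the protein-coding transcript Unc93b1-203 and holds all 251 bases of that intron (3942443 to 3942693). The start of Unc93b1-201 (chr19:3942440-3942713, plus strand, GRCm38, read from the GENCODE M21 transcript) is shown because these bases tell it from Unc93b1-203; capitals mark the intron.
Unc93b1-201: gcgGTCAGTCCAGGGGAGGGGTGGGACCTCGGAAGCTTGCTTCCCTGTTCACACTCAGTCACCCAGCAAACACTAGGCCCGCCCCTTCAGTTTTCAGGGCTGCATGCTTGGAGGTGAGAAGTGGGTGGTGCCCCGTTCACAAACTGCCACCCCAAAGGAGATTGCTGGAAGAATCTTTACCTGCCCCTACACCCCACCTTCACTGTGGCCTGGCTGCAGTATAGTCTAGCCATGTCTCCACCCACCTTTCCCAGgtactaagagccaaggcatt

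Unc93b1-201 made 16.6, 15.4 and 18.9% of the gene's TPM in KO libraries, against 40.6, 27.4, 23.9 and 21.5% in WT libraries. Every KO library was below every WT library, and WT library 1 had the highest share. The mean was 17.0 ± 1.77% in KO (SD, n = 3) and 28.3 ± 8.50% in WT (SD, n = 4), with 24.3% in WT libraries 2 to 4. The estimated reads were 479, 416 and 639 in KO libraries, against 980, 784, 758 and 756 in WT libraries, again without overlap. Unc93b1-203, of 2266 bases and 11 exons, made 80.1, 80.6 and 76.3% in KO libraries, against 53.5, 69.1, 69.0 and 66.8% in WT libraries. Its share did not overlap either, and it is largely the complement of the first.

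These were 2 of 17 transcripts of the 10 genes with a mean share of 5 to 95%. Over all genes, 6.02% of 27491 such transcripts did not overlap between the groups, 2.94% were lower in every KO library, and 4.2% of 4740 retained-intron transcripts were lower in every KO library. The shares were not tested. An exact permutation test of 3 against 4 libraries cannot give a two-sided p below 0.0571. Retained-intron transcripts of all genes together took 3.08, 2.69 and 2.86% of TPM in KO libraries, against 2.89, 2.87, 3.01 and 2.72% in WT libraries, with overlap. The shares are Salmon's estimates for overlapping transcripts.

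**Figure D3:**
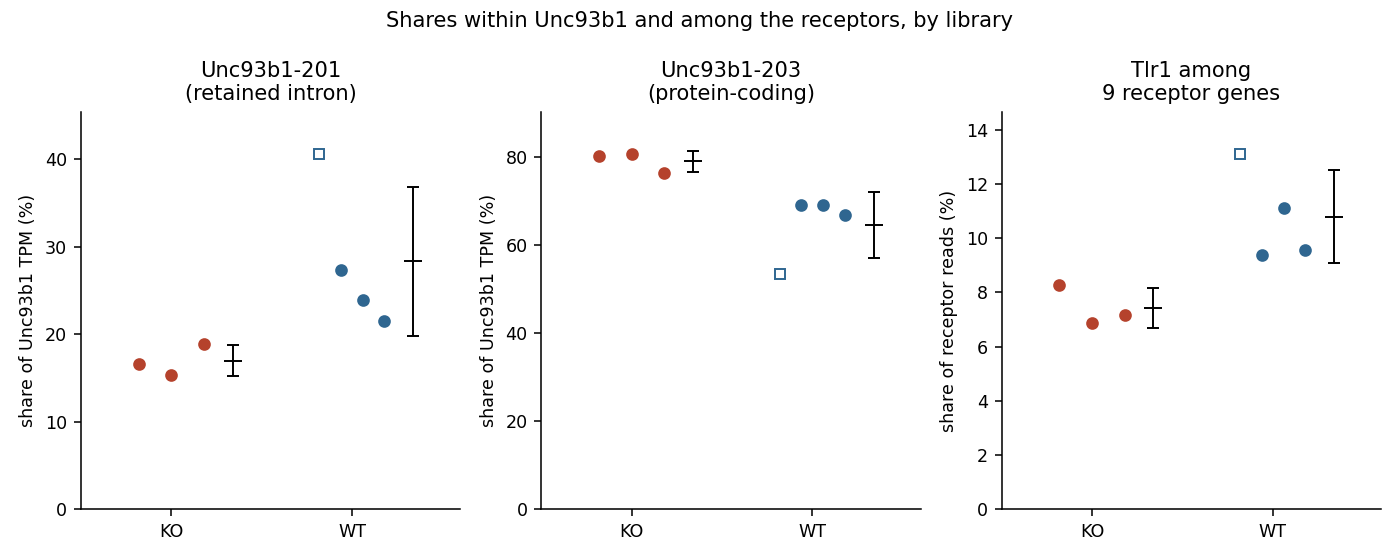
Share of the Unc93b1 TPM from the retained-intron and the protein-coding transcript, and share of Tlr1 in the reads of the 9 receptor genes (y axes, percent from 0), in 3 KO libraries (red, left) and 4 WT libraries (blue, right), with the mean ± SD as a black bar and WT library 1 as an open square. In each panel the KO and WT points do not overlap, with Unc93b1-201 and Tlr1 lower and Unc93b1-203 higher in KO.

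The receptors were also set against each other within a library, which takes out a level common to all of them. The 9 receptor genes summed to 138, 128 and 139 CPM in KO libraries, against 80.5, 114, 136 and 139 CPM in WT libraries. The groups of this sum overlapped, and WT library 1 was again lowest. Tlr1 took 8.28, 6.88 and 7.16% of the receptor reads in KO libraries, against 13.1, 9.39, 11.1 and 9.57% in WT libraries. Every KO share of Tlr1 was below every WT share, at 7.44 ± 0.74% in KO (SD, n = 3) and 10.8 ± 1.71% in WT (SD, n = 4), and in TPM at 8.64 ± 0.74% in KO and 13 ± 2.51% in WT. Tlr1 was 1 of 9 receptors whose share did not overlap, in reads as in TPM. Of all tested genes 12.9% did not overlap in CPM, which is a different measure from a share among 9 genes. Tlr2 took 22.9 ± 2.30% in KO and 19.9 ± 1.44% in WT, and Tlr13 took 27.2 ± 2.34% in KO and 26.5 ± 1.04% in WT, both with overlap. The difference in Tlr1 share was seen in these values first and was not tested.

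The remaining genes of the pathway were followed in 7 lists of 67 genes, of which 66 were tested. Of these, 2 were higher in KO, 0 were lower and 64 did not pass, where 0.478% of all tested genes were higher and 0.169% lower. Without WT library 1 the count was 1, Irf7. The median log2 fold change of the 66 was 0.02, beside -0.01 over all genes. Both called genes lie downstream of the receptors.

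Myd88 encodes the adaptor shared by most Toll-like receptors (chromosome 9, 119335934 to 119341411, minus strand). Myd88 had 72.4, 75.4 and 78.8 CPM in KO libraries, against 53.3, 58.9, 57.4 and 57.9 CPM in WT libraries. All KO libraries lay above all WT libraries. The mean was 75.6 ± 3.20 CPM in KO (SD, n = 3) and 56.9 ± 2.47 CPM in WT (SD, n = 4), a 1.33-fold difference (log2 fold change 0.41 ± 0.07, SE, with edgeR's adjusted p at 0.0421). The call for Myd88 did not hold when any 1 of the 7 libraries was left out (adjusted p = 0.0608 to 0.155), though its log2 fold change stayed between 0.37 and 0.44.

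Irf7 encodes the transcription factor that drives type I interferon genes after TLR7 and TLR9 signals (chromosome 7, 141262706 to 141266481, minus strand). Irf7 had 161, 135 and 146 CPM in KO libraries, against 78.1, 49.0, 51.4 and 76.0 CPM in WT libraries. Each KO library exceeded each WT library by a wide margin. The mean was 147 ± 13.1 CPM in KO (SD, n = 3) and 63.6 ± 15.5 CPM in WT (SD, n = 4), a 2.32-fold difference (log2 fold change 1.21 ± 0.18, SE, with edgeR's adjusted p at 0.0327). With 1 library left out, Irf7 passed in 2 of 7 fits, those that left out WT library 1 or WT library 4, and the adjusted p ranged from 0.0372 to 0.104. Irf7 is itself an interferon-stimulated gene, and it stands in that list below too.

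No gene of the other 5 lists passed, and in each the 2 genes with the smallest p are given here. Among the other receptors (4 tested, median log2 fold change 0.13), Cd180, an LPS-related receptor of B cells and macrophages, had 22.2 ± 2.55 CPM in KO and 17.7 ± 2.26 CPM in WT, with an adjusted p of 0.372. Tlr11 had 0.502 ± 0.273 CPM in KO and 0.629 ± 0.0888 CPM in WT. Tlr5 and Tlr12, the remaining receptors of the mouse family, had log2 fold changes of 0.25 and 0.02, which turned to -0.04 and -0.03 without WT library 1.

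Among the coreceptors (5 tested, median 0.17), Lbp, the lipopolysaccharide-binding protein, had 54.6 ± 4.06 CPM in KO and 43.3 ± 7.37 CPM in WT, with an adjusted p of 0.403. Cd36, a scavenger receptor that assists TLR2 with TLR6, had 141 ± 41.6 CPM in KO and 167 ± 16.1 CPM in WT. Among 12 folding and processing genes (median 0.14), Ctsl, a protease that cleaves endosomal receptors, had 162 ± 5.95 CPM in KO and 137 ± 3.82 CPM in WT, with an adjusted p of 0.155. Lrrc59, which takes part in moving endosomal receptors out of the endoplasmic reticulum, had 112 ± 7.85 CPM in KO and 94.1 ± 5.78 CPM in WT. Without WT library 1 the medians of these lists were 0.04 for the coreceptors, 0.10 for the folding genes and -0.03 for the other receptors.

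The 19 kinases and ubiquitin ligases had a median log2 fold change of -0.01, with Irak4, the first kinase recruited by MYD88, which had 27.4 ± 2.01 CPM in KO and 23.6 ± 4.45 CPM in WT. Ube2n, a ubiquitin-conjugating enzyme, had 77.4 ± 2.22 CPM in KO and 82.1 ± 3.80 CPM in WT. The 12 negative regulators had a median of 0.02, with Atf3, a transcriptional repressor of cytokine genes, which had 3.17 ± 0.591 CPM in KO and 4.18 ± 0.386 CPM in WT. Dok3, an adaptor that restrains signalling, had 121 ± 2.75 CPM in KO and 130 ± 4.26 CPM in WT. For these 4 genes edgeR's adjusted p lay between 0.434 and 0.676. Of 6 adaptors 5 were tested, with a median log2 fold change of 0.23, and 0.16 without WT library 1. All 5 were above 0, where 47.3% of all genes were, but without WT library 1 Ticam2 was at -0.0025. Sarm1, with 3 to 6 reads in every library, was not tested.

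**Figure D4:**
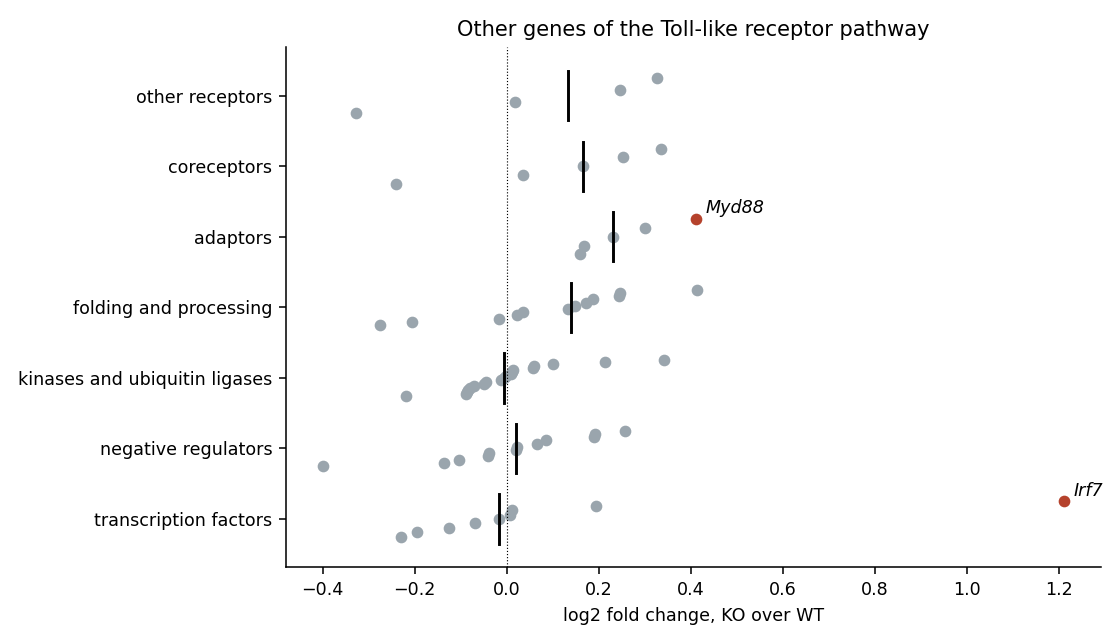
Log2 fold change, KO over WT (x axis), of the 66 tested pathway genes in 7 lists, with 1 point per gene and the list median as a black bar. Red points, Myd88 and Irf7, passed an adjusted p of 0.05, and grey points did not.

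The cells that carry these receptors were followed through marker lists. In no list was a marker at 0 reads in any library. The 10 monocyte and macrophage markers summed to 1214 to 1442 CPM in KO libraries, against 756 to 1082 CPM in WT libraries, with the lowest sum in WT library 1 and 0 of 10 past the test. The 10 neutrophil markers summed to 17040 to 19140 CPM in KO libraries, against 13680 to 17310 CPM in WT libraries, with 0 of 10 past the test and the lowest sum again in WT library 1.

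Of 6 nonclassical monocyte markers, 1 passed (Cd300e, higher), and the sums were 339.5 to 356 CPM in KO libraries and 252 to 298 CPM in WT libraries. The 10 B-lineage markers summed to 187 to 305 CPM in KO libraries, against 390 to 617 CPM in WT libraries, with a median log2 fold change of -0.93 and 0 of 10 past the test. Plasmacytoid dendritic cell markers summed to 135 to 214 CPM in KO libraries and 184.5 to 242.5 CPM in WT libraries, with 0 of 8 past the test. Conventional dendritic cell markers summed to 71.6 to 85.8 CPM in KO libraries and 83.6 to 91.1 CPM in WT libraries, with 1 of 7 tested lower (Cd209a).

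In the interferon-stimulated list 14 of 20 genes were higher in KO and 0 lower, and the list summed to 1411 to 1664 CPM in KO libraries, against 674 to 917 CPM in WT libraries. The erythroid list summed to 111500 to 145000 CPM in KO libraries and 141700 to 225100 CPM in WT libraries, with the highest sum in WT library 1. The skeletal muscle list varied most within KO, at 52.2 to 5141 CPM in KO libraries and 876 to 1812 CPM in WT libraries, with 0 of 9 and 0 of 6 past the test in these 2 lists. The part of any of these lists in the receptor values was not tested.

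**Figure D5:**
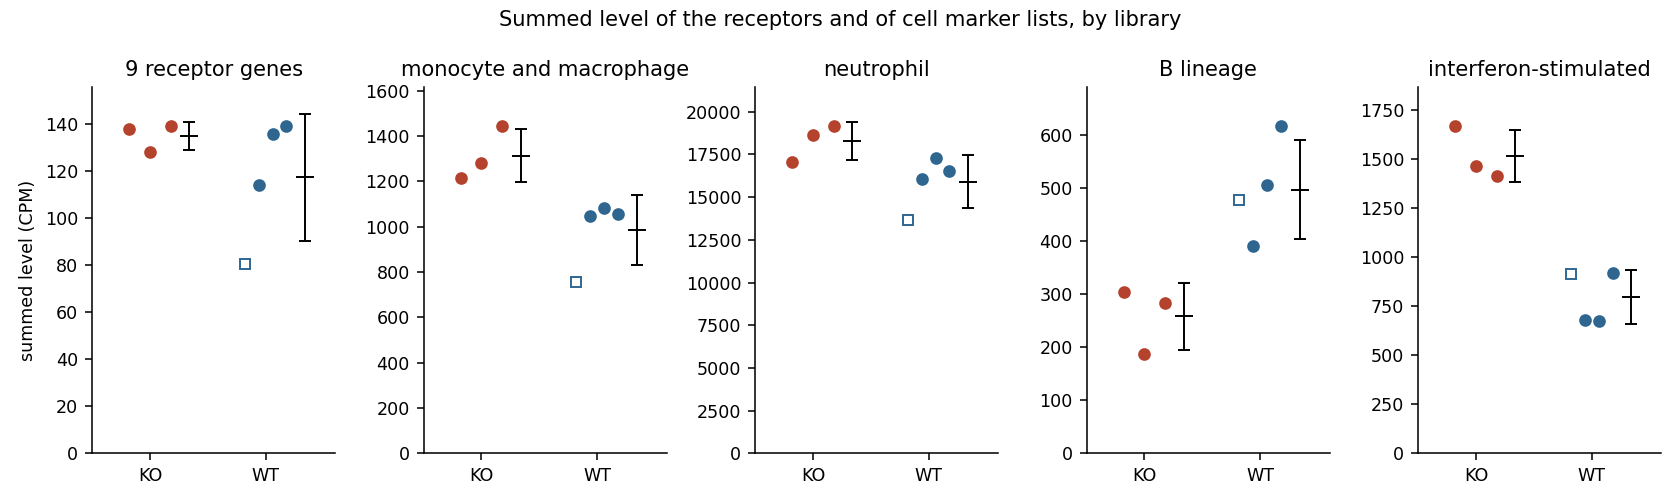
Summed level in CPM (y axes, linear from 0) of the 9 receptor genes and of 4 marker lists in 3 KO libraries (red, left) and 4 WT libraries (blue, right), with the mean ± SD as a black bar and WT library 1 as an open square. WT library 1 is the lowest point for the receptors, the monocyte list and the neutrophil list. KO and WT points overlap for the receptors and the neutrophil list. They do not overlap for the monocyte and interferon-stimulated lists, higher in KO, or for the B-lineage list, lower in KO.

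Genes with the most similar pattern over the 7 libraries were found for the 3 receptors with the smallest p, as the smallest root mean square difference of centred log2(CPM + 0.5) among 10872 genes that averaged 5 CPM or more. For Tlr1 these were St6gal1, a sialyltransferase (0.0613), Lbh (0.0928) and Gimap6 (0.0934). St6gal1 had 32.3, 27.6 and 29.4 CPM in KO libraries, against 31.8, 33.7, 42.6 and 37.7 CPM in WT libraries, highest in WT libraries 3 and 4 as Tlr1 was. For Tlr2 they were Gm49339 (0.0739), Sdf2l1 (0.0888) and Nek6 (0.106), and for Tlr13 Plcg2, a phospholipase (0.0506), Trib1 (0.0661) and Ltb4r1, a leukotriene B4 receptor (0.0697). Plcg2 had 122, 133 and 135 CPM in KO libraries, against 79.7, 110, 126 and 127 CPM in WT libraries, low in WT library 1 as Tlr13 was. The likeness is a description over 7 libraries that share depth and scaling.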

How the data were processed

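RNA from bone marrow was made into strand-specific mRNA libraries for the DNBSEQ platform, per the labels' protocols. The submitters' processing notes name FastQC 0.11.9, Salmon 1.7.0, DESeq2 and the genome build GRCm38.p6. The annotation release and Salmon's options are not given in the sources used here. For each transcript the authors deposited an estimated count, often not a whole number, beside its TPM, which corrects for effective length and library total.

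Estimated counts were summed to 35498 genes through GENCODE M21 (569 transcripts had no gene there) and rounded. edgeR 4.0.16 in R 4.3.3 removed genes with few reads (filterByExpr, leaving 14238), scaled libraries by TMM and tested KO against WT over all 7 libraries with the quasi-likelihood test. P-values were adjusted by the Benjamini-Hochberg method over all tested genes, and an adjusted p under 0.05 passed. CPM uses the TMM-scaled library size. SE is the log2 fold change divided by the root of F, and intervals are at 95%. Levels are mean ± SD over 3 KO and 4 WT libraries. TPM was summed per gene. On simulated counts the steps called 70% of 100 genes changed 2-fold and 94% of 100 genes changed 4-fold. These values do not cover smaller changes.

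Tried beside this were RLE scaling, TMM computed without mitochondrial, haemoglobin and immunoglobulin genes, DESeq2 1.42.0, limma 3.58.1 voom with sample weights, other filters, a length offset, limma on log2(TPM + 0.1) and log2(TPM + 1) with and without a filter at a mean TPM of 0.5, a threshold of 0.1, a block for sample number, and fits that each lack 1 library. The members, lists, markers and motifs were chosen with earlier results of these data known. Named were all 10 members, each pathway gene that passed or otherwise the 2 of its list with the smallest p, and marker genes that passed; Tlr5, Tlr12 and Sarm1 were added to complete their lists. The labels do not say whether KO and WT libraries were paired, and the main fit does not pair them. Promoter windows are from RefSeq. Protein sequences were not used here.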

Additional observations from a re-analysis of the deposited data

Results flagged for a closer look

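In 6 of 48 sets of 4 WT values, 1 library lay far from the rest by Dixon's criterion, and in 5 of the 6 it was WT library 1. Independent, normally distributed values meet the criterion in about 1 in 20 sets. The 48 sets come from the same 4 libraries and hold the same genes in several units, so their count cannot be set against that rate. WT library 1 had 7.08 CPM for Tlr4, 1.77 TPM for Tlr6 and 22.7 TPM for Myd88. Unc93b1-203 made 53.5% of the Unc93b1 TPM in it, and Tlr8 made 4.44% of the receptors' TPM. In WT library 4, Tlr7-206 made 35.4% of the Tlr7 TPM, from 3 reads.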

How the results depend on the processing

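Of 190 values, for the 10 genes under 19 alternative fits, none passed the threshold (lowest adjusted p 0.211), and 12 in 4 genes reversed in sign. With voom sample weights the log2 fold change was -0.0427 for Tlr4, -0.191 for Tlr9 and -0.0873 for Unc93b1. With the length offset Unc93b1 was at -0.101, and on log2(TPM + 0.1) Tlr3 was at 0.0182. With 1 library left out, Tlr3 ranged from -0.195 to 0.025, Tlr4 from -0.0506 to 0.206, Tlr9 from -0.149 to 0.185 and Unc93b1 from -0.059 to 0.0663. The cause was not tested.

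The count of 2 pathway genes higher in KO was 3 with DESeq2, 0 with the length offset, 1 on log2(TPM + 0.1), 1 on log2(TPM + 1), 0 on log2(TPM + 1) without a filter, and 0 to 1 with 1 library left out. The cause was not tested. The levels were also recomputed as reads over the mean effective length of a gene's transcripts, scaled to a fixed total over all genes as TPM is. On that scale the mean of Tlr4 was 5.75, of Tlr8 4.14, of Tlr13 12.2 and of Unc93b1 131, with Tlr13 above Tlr2. By share of reads rather than TPM, Tlr6-201 was at 96.8%, Tlr8-202 at 98.3% and Tlr13-201 at 99.9%.

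The deviations of same-numbered KO and WT libraries had r = 0.124, -0.0406 and -0.271, and those of unlike number ran from -0.231 to 0.261. These values cannot decide whether libraries were paired. With the replicate block, on the 6 libraries numbered 1 to 3, 0 of 10 members and 1 pathway gene passed, as they did on the same libraries without the block (1, added after the data were seen). Over all genes 22 passed with the block and 52 without it. The 92 calls over all genes (68 higher) were 397 with DESeq2 (251 higher), 305 with voom weights (183 higher), 55 with the length offset (44 higher), 51 on log2(TPM + 0.1) (45 higher), 50 on log2(TPM + 1) (45 higher), 21 without its filter (17 higher), and 17 to 65 with 1 library left out. On the TPM scales all genes had a median log2 fold change of 0.132, 0.112 and, without a filter, 0.0553. A depth of 20300468 to 21099972 reads left Tlr3 with 43 to 71 reads per library.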
